A study of Homo sapiens with 4 samples.

Results

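The comparison described here sets the RNA of HepG2 cells that, by the library's title, received both a short hairpin against PJA1 and TGF-beta1 over the RNA of HepG2 cells with a control hairpin. HepG2 is a human liver cancer cell line, and PJA1 is a RING-type E3 ubiquitin ligase. The genes compared were chosen by level alone, as those whose normalized count averaged 20 or more across the 4 libraries of the study, which kept 8575 of 23368 gene symbols. A normalized count is the number of reads of a gene divided by 1 size factor per library, and it is not scaled by gene length, so levels are compared between libraries and not between genes. CASC5 and BTN2A2 lay just inside the limit, with mean normalized counts of 20.03 and 20.04, and FKBP11 and LMBR1L just outside it, with 19.95 and 19.94.

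The study sequenced 4 conditions, with 1 library each, from lentivirus-infected or cytokine-treated HepG2 cells. The library of interest is titled shPJA/TGFb1, but its treatment label says water, and it is called the library titled shPJA/TGFb1 throughout. The other libraries are TGFb1, labelled as treated with TGF-beta1, shPJA1, infected with the PJA1 hairpin, and shCtrl, infected with the control hairpin. The protocol gives 200 pM TGF-beta1 for 1 hour. It is not stated whether the TGFb1 cells had a control hairpin, whether the hairpin lines were pools or clones, or whether the cells of the conflicting library were infected and treated together. Reads assigned to genes numbered 990698 in the library titled shPJA/TGFb1, 2848665 in TGFb1, 1784689 in shPJA1 and 1363318 in shCtrl, so the library of interest was the shallowest. With 1 library a side no difference has a replicate check, and the intervals given are exact 95% counting intervals on each ratio, which cover counting error only. A gene is called higher or lower here if its ratio was at least 1.5-fold and its interval excluded 1, which is a size rule and no test between conditions. For genes picked by this ratio, the library titled shPJA/TGFb1 and shCtrl tend to lie at opposite ends by that choice alone. Fewer cells of a kind and less RNA per cell cannot be told apart in such libraries.

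TGF-beta1 binds paired serine/threonine kinase receptors that phosphorylate SMAD2 and SMAD3, which join SMAD4, enter the nucleus and bind short DNA elements. Among the first genes they switch on are inhibitors of the pathway itself, the inhibitory SMADs and the SKI family of corepressors. In liver cells TGF-beta restrains growth and induces matrix and wound-response genes, and ubiquitin ligases set the amounts of SMADs, receptors and adaptors.

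PJA1 was low in the libraries titled with the hairpin, and SMAD7 was high in those titled with TGFb1. PJA1 itself had 6 reads in the library titled shPJA/TGFb1 and 43 in shCtrl, a ratio of 0.195 (0.068 to 0.46), the lowest of the 8575 genes. Its normalized counts were 9.78 in the library titled shPJA/TGFb1, 38.2 in TGFb1, 15.3 in shPJA1 and 50.3 in shCtrl, so the libraries whose titles name the hairpin were the low ones. SMAD7, an inhibitory SMAD induced early by TGF-beta, had 97 reads in the library titled shPJA/TGFb1 and 71 in shCtrl, a ratio of 1.91 (1.39 to 2.63). Its normalized counts were 158.1, 168.0, 69.3 and 83.0 in the library titled shPJA/TGFb1, TGFb1, shPJA1 and shCtrl, so the libraries whose titles name TGFb1 were the high ones and did not overlap the others. Among other genes looked at for the label, KLF10 and ID1 were also higher in both libraries titled with TGFb1 than in shPJA1 and shCtrl. ID2, ID3 and JUNB were not. Whether the title or the water label is right was not tested.

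Of the 16 genes listed as negative feedback on TGF-beta and SMAD signalling, 12 passed the limit on level, 1 was called higher (SMAD7) and 0 lower. For comparison, 2.04% of all 8575 genes were called higher and 2.25% lower. The same shares stand beside the counts of every other list. All lists were chosen with earlier results of these data known, so a share called in a list that exceeds these is a description and no test of that list. The median log2 ratio of the 12 genes was 0.18, against 0.0071 for all genes, and 9 of 12 had a ratio above 1, as had 51.0% of all genes. The binomial interval of the list's median held 0 (-0.069 to 0.52). With TGFb1 in place of shCtrl the list's median was -0.11. SKIL, a SKI-family corepressor, had normalized counts of 229.8 in the library titled shPJA/TGFb1, 254.0 in TGFb1, 201.7 in shPJA1 and 160.1 in shCtrl, a ratio of 1.44 (1.13 to 1.83) to shCtrl that stayed under the 1.5-fold rule. BAMBI, a decoy receptor, had a ratio of 1.69 whose interval held 1 (0.95 to 3.02). The ubiquitin ligases of the list lay close to 1, with SMURF2 at 1.24 (0.99 to 1.55), RNF111 at 1.20 (0.92 to 1.55), NEDD4L at 1.14 (0.96 to 1.35), SMURF1 at 1.11 (0.86 to 1.45) and WWP1 at 1.07 (0.84 to 1.37). TGIF1, a homeobox corepressor, was at 1.12 (0.834 to 1.503), SKI at 0.95 (0.74 to 1.23), the phosphatase PPM1A at 0.94 (0.72 to 1.21) and TGIF2, a relative of TGIF1, at 0.77 (0.53 to 1.12). The other 4 members, SMAD6, PMEPA1, C18orf1 and VASN, lay below the limit on level. PMEPA1, a membrane inhibitor of SMAD signalling, had 5 reads in the library titled shPJA/TGFb1, 12 in TGFb1, 6 in shPJA1 and 1 in shCtrl. Its normalized counts were 8.15, 6.83, 5.40 and 1.17 in the same order, and the interval of its ratio to shCtrl held 1 (0.78 to 330).

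Among 40 early targets of TGF-beta and SMAD3, 30 passed the limit, 4 were called higher and 0 lower. The share called higher was 13.3%, against 2.04% of all genes. Their median log2 ratio was 0.23, and 22 of 30 had a ratio above 1. CTGF, a secreted matricellular growth factor, had normalized counts of 272.2 in the library titled shPJA/TGFb1, 231.2 in TGFb1, 169.3 in shPJA1 and 135.6 in shCtrl, and a ratio of 2.01 (1.57 to 2.57) to shCtrl. It was highest where TGFb1 is in the title, and the ratio of shPJA1 to shCtrl was 1.25 with an interval that held 1 (0.985 to 1.59). SGK1, a kinase of ion transport and survival signalling, had 83.1 in the library titled shPJA/TGFb1, 66.1 in TGFb1, 34.2 in shPJA1 and 36.2 in shCtrl, with a ratio of 2.29 (1.44 to 3.71). GADD45B, a stress-response gene, had 47.3, 41.6, 18.9 and 19.9 in the same order and a ratio of 2.38 (1.26 to 4.61) from 29 against 17 reads. For SGK1 and GADD45B the libraries fell into the same arrangement, with the library titled shPJA/TGFb1 and TGFb1 high and shPJA1 and shCtrl low. JUNB, a subunit of the AP-1 transcription factor, was instead high in the library titled shPJA/TGFb1 alone, at 102.7, against 56.4 in TGFb1, 50.4 in shPJA1 and 59.6 in shCtrl, and its ratio to shCtrl was 1.72 (1.17 to 2.54). JUNB overlaps HOOK2 on the opposite strand.

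Several deeply read early targets were higher by less than 1.5-fold, with intervals that exclude 1. BHLHE40, a repressor of the circadian clock, had 816.6 in the library titled shPJA/TGFb1, 751.8 in TGFb1, 553.7 in shPJA1 and 551.7 in shCtrl, a ratio of 1.48 (1.30 to 1.68). KLF10, a TGF-beta-inducible zinc finger factor, had 511.8, 547.9, 371.9 and 372.8 in the same order, a ratio of 1.37 (1.17 to 1.61). BHLHE40 and KLF10 were at nearly the same level in shPJA1 and shCtrl. TIMP1, an inhibitor of matrix metalloproteinases, was at 1.34 (1.15 to 1.56) and the cytokine gene IL11 at 1.38 (1.02 to 1.87). SPHK1, sphingosine kinase, went the other way at 0.69 (0.54 to 0.87), with 177.7 in the library titled shPJA/TGFb1, 170.3 in TGFb1, 170.2 in shPJA1 and 258.3 in shCtrl, so shCtrl alone was high. The cell-cycle inhibitor CDKN2B was at 0.77 (0.62 to 0.96), while CDKN1A, another one, was at 1.07 (0.99 to 1.15) from 1189 and 1554 reads.

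**Figure D1:**
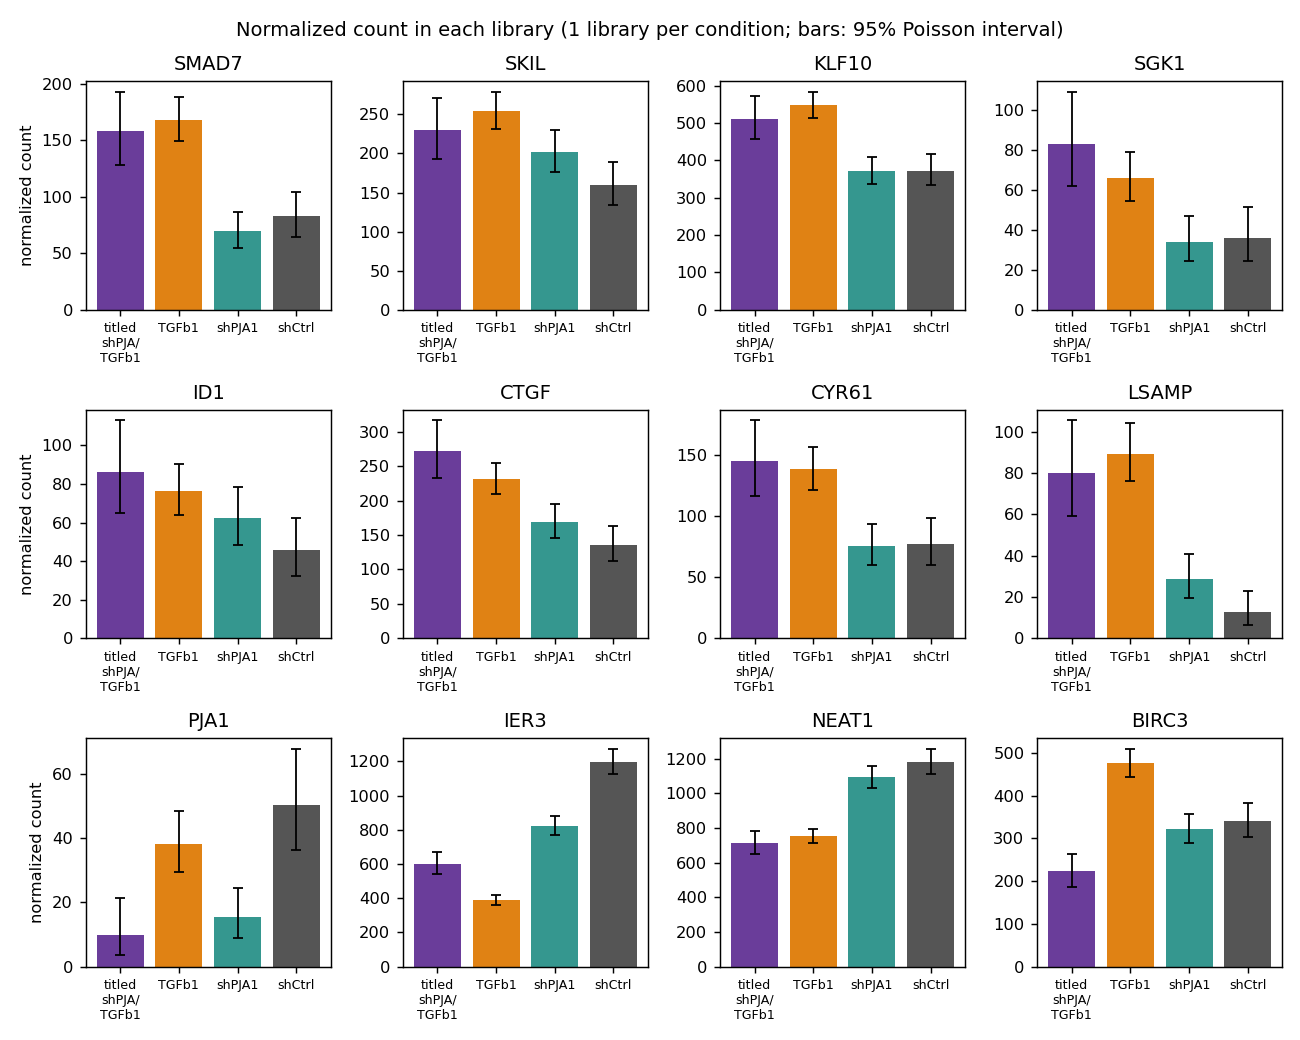
Normalized count (vertical axes, linear from 0) of 12 genes in each of the 4 libraries, 1 bar per library, with the exact 95% Poisson interval of its reads. SMAD7, SKIL, KLF10, SGK1, ID1, CTGF, CYR61 and LSAMP are higher in both libraries titled with TGFb1 than in shPJA1 and shCtrl, IER3 and NEAT1 are lower in them, PJA1 is low in both libraries titled with the hairpin, and BIRC3 is highest in TGFb1 and lowest in the library titled shPJA/TGFb1. The intervals of ID1 in both libraries titled with TGFb1, and of SKIL in the library titled shPJA/TGFb1, overlap those of shPJA1.

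The promoter sequences of 4 genes that were called higher are shown because SMAD3 and SMAD4 bind the SMAD box, whose core reads CAGAC on one strand and GTCTG on the opposite strand. TEAD factors, the partners of YAP, bind a site that reads GGAATG on one strand and CATTCC on the opposite strand. Each is the 250 bases before the start of the gene, 5′ to 3′, from RefSeq on GRCh38.p14, with every match to either motif on either strand in capitals, and the motifs do not overlap in these windows. For SMAD7 the most upstream of 3 annotated starts was used.
SMAD7 promoter, chr18:48950966-48951215, minus strand: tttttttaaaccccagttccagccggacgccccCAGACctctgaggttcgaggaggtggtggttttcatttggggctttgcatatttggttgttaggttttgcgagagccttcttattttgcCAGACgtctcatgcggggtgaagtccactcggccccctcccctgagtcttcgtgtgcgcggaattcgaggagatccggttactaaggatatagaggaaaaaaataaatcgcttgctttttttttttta
CTGF promoter, chr6:131951373-131951622, minus strand: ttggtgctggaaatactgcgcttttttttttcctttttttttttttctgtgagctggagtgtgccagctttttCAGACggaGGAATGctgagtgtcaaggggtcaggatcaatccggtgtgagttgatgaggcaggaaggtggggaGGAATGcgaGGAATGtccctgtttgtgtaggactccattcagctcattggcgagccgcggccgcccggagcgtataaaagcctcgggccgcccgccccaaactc
ID1 promoter, chr20:31605039-31605288, plus strand: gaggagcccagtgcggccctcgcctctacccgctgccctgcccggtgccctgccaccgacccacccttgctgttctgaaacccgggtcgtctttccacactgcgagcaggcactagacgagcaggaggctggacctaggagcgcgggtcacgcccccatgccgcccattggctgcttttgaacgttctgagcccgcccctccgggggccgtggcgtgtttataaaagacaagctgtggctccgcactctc
LSAMP promoter, chr3:116445488-116445737, minus strand: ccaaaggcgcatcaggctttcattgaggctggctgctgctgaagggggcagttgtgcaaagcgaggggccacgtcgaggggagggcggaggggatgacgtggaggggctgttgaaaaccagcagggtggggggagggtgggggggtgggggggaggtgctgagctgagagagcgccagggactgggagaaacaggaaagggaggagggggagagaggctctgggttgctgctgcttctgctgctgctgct
SMAD7 held CAGAC at 2 places, starting 217 and 128 bases before its start. CTGF, listed by RefSeq as CCN2, held CAGAC once, 177 bases before its start, and GGAATG at 3 places, 169, 104 and 95 bases before it. The windows of ID1 and LSAMP held neither motif, which says only that these letters are not in those windows. Of 34788 distinct RefSeq windows of the same length, 38.0% held CAGAC on either strand, 11.9% held GGAATG, and 0.0805% held GGAATG at 3 or more places. A match of this kind is a description of the sequence and not evidence of binding in these cells.

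Over all 8575 genes, 872 (10.2%) had an interval that excluded 1, of which 503 (5.87%) were higher and 369 (4.3%) lower in the library titled shPJA/TGFb1. For equal levels in both libraries, counting alone would give at most 429 genes such an interval on average, with the size factors taken as known. With the 1.5-fold rule added, 368 genes (4.29%) were called, 175 higher (2.04%) and 193 lower (2.25%), and an unknown part of these is counting error. At 2-fold, 56 genes (0.653%) were higher and 83 (0.968%) lower. The limit of detection followed the level of a gene. At a normalized count of 20 in shCtrl an interval excluded 1 only from a ratio of 1.97 upward or of 0.246 downward, at 100 from 1.38 or 0.681, and at 1000 from 1.11 or 0.896. The genes called higher had a median of 46 reads in the library titled shPJA/TGFb1 and 35 in shCtrl, those called lower 23 and 58, and all genes 56 and 78.

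**Figure D2:**
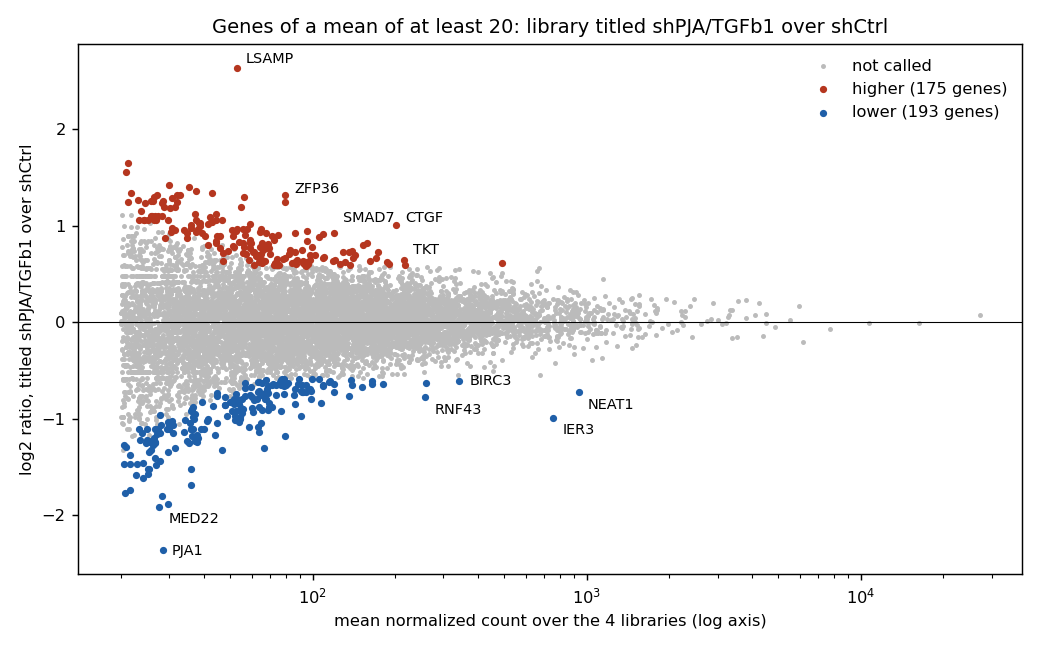
Each point is 1 of 8575 genes, with its mean normalized count over the 4 libraries on the horizontal log axis and its log2 ratio of the library titled shPJA/TGFb1 over shCtrl on the vertical axis. The 175 genes called higher are red and the 193 called lower are blue, most of them at mean counts below 200, with IER3 and NEAT1 standing apart among the deeply read lower genes.

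The upper end of the comparison, ranked by the lower bound of the interval, was led by LSAMP, a GPI-anchored cell adhesion protein of the IgLON family best known from neurons. Its normalized counts were 79.9 in the library titled shPJA/TGFb1, 89.4 in TGFb1, 28.8 in shPJA1 and 12.9 in shCtrl, and the ratio to shCtrl was 6.21 (3.19 to 13.2) from 49 against 11 reads. The libraries titled with TGFb1 were the high ones, and shPJA1 lay above shCtrl. ZFP36, tristetraprolin, which speeds the decay of AU-rich mRNAs, had 119.0 in the library titled shPJA/TGFb1, 79.2 in TGFb1, 68.4 in shPJA1 and 50.3 in shCtrl, a ratio of 2.37 (1.603 to 3.536). ERGIC2, a protein of the compartment between endoplasmic reticulum and Golgi, had 86.4 in the library titled shPJA/TGFb1, 47.3 in TGFb1, 56.7 in shPJA1 and 35.1 in shCtrl, a ratio of 2.46 (1.55 to 3.99). PAFAH1B3, a catalytic subunit of platelet-activating factor acetylhydrolase, had 58.7, 27.9, 32.4 and 22.2 in that order, a ratio of 2.64 (1.48 to 4.88). For ZFP36, ERGIC2 and PAFAH1B3 the library titled shPJA/TGFb1 was above all others and shCtrl the lowest, an order that follows in part from the ranking.

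CYR61, a matricellular relative of CTGF, had 145.1 in the library titled shPJA/TGFb1, 138.4 in TGFb1, 75.6 in shPJA1 and 77.1 in shCtrl, and a ratio of 1.88 (1.35 to 2.63). The nuclear protein gene LCORL had 57.0, 45.0, 26.1 and 22.2 in the same order, with a ratio of 2.57 (1.43 to 4.75), and for both genes the libraries titled with TGFb1 were high. SERPING1, the inhibitor of complement C1, was at 2.52 (1.44 to 4.53), with 61.9 in the library titled shPJA/TGFb1, 39.9 in TGFb1, 45.0 in shPJA1 and 24.5 in shCtrl. DPP4, a cell-surface dipeptidase, had 112.5, 94.5, 116.1 and 58.4 in the same order, a ratio of 1.92 (1.32 to 2.83), with shCtrl alone at the low end. TXLNG, taxilin gamma, was at 1.77 (1.34 to 2.35) and the membrane protein gene CMTM3 at 1.85 (1.32 to 2.59). ERGIC2, PAFAH1B3, LCORL and TXLNG overlap a coding gene on the opposite strand in GENCODE (FAR2, PRR19, NCAPG and RBBP7), and since the counting is not stated to use strand, reads of each pair cannot be told apart.

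At the lower end PJA1 was followed by IER3, a stress-induced immediate early gene that modulates apoptosis. IER3 had 603.1 in the library titled shPJA/TGFb1, 390.1 in TGFb1, 824.7 in shPJA1 and 1198 in shCtrl, a ratio of 0.503 (0.446 to 0.568) from 370 against 1025 reads. All the other libraries lay below shCtrl, TGFb1 the most. NEAT1, the long noncoding RNA that scaffolds nuclear paraspeckles, had 713.9 in the library titled shPJA/TGFb1, 752.3 in TGFb1, 1093 in shPJA1 and 1182 in shCtrl, a ratio of 0.604 (0.539 to 0.677). It was low in the libraries titled with TGFb1. RNF43, a ubiquitin ligase that removes Wnt receptors from the cell surface, had 198.9, 225.5, 262.9 and 341.3 in the same order, a ratio of 0.583 (0.468 to 0.722). STARD13, a GTPase-activating protein, had 44.0 in the library titled shPJA/TGFb1, 86.6 in TGFb1, 87.3 in shPJA1 and 99.3 in shCtrl, a ratio of 0.443 (0.276 to 0.690), and was low in the library titled shPJA/TGFb1 alone. C4BPB, the beta chain of the complement regulator C4b-binding protein, had 61.9, 87.1, 92.7 and 121.6 in that order, a ratio of 0.51 (0.342 to 0.745).

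The other genes of the lower end had 6 to 25 reads in the library titled shPJA/TGFb1. MED22, a subunit of the Mediator complex, had 13.04 in the library titled shPJA/TGFb1, 23.9 in TGFb1, 24.3 in shPJA1 and 49.1 in shCtrl, a ratio of 0.266 (0.108 to 0.573). TTC35, a subunit of the membrane protein complex of the endoplasmic reticulum, had 16.3, 42.7, 32.4 and 52.6 in the same order, a ratio of 0.31 (0.139 to 0.624). UGT1A1, the enzyme that conjugates bilirubin, had 11.4 in the library titled shPJA/TGFb1, 34.2 in TGFb1, 30.6 in shPJA1 and 42.1 in shCtrl, a ratio of 0.271 (0.102 to 0.618), but it shares its last exons with the other UGT1A genes, and how reads were split among them is not given in the sources used here. For MED22 and UGT1A1, and for TTC35, the library titled shPJA/TGFb1 was the lowest and shCtrl the highest, which again follows in part from the ranking. ITGA10, an integrin collagen receptor subunit, was at 0.349 (0.162 to 0.686), TTC23 at 0.299 (0.101 to 0.736) and the RNA-binding protein gene RAVER2 at 0.325 (0.121 to 0.756). PDCD7, of the minor spliceosome, was at 0.453 (0.276 to 0.719), COQ9, needed for coenzyme Q synthesis, at 0.471 (0.287 to 0.750) and MAD2L1BP, an antagonist of the spindle checkpoint, at 0.471 (0.284 to 0.758). COQ9 and RAVER2 overlap a coding gene on the opposite strand (CIAPIN1 and JAK1), and RNF43 overlaps SUPT4H1 on the same strand.

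**Figure D3:**
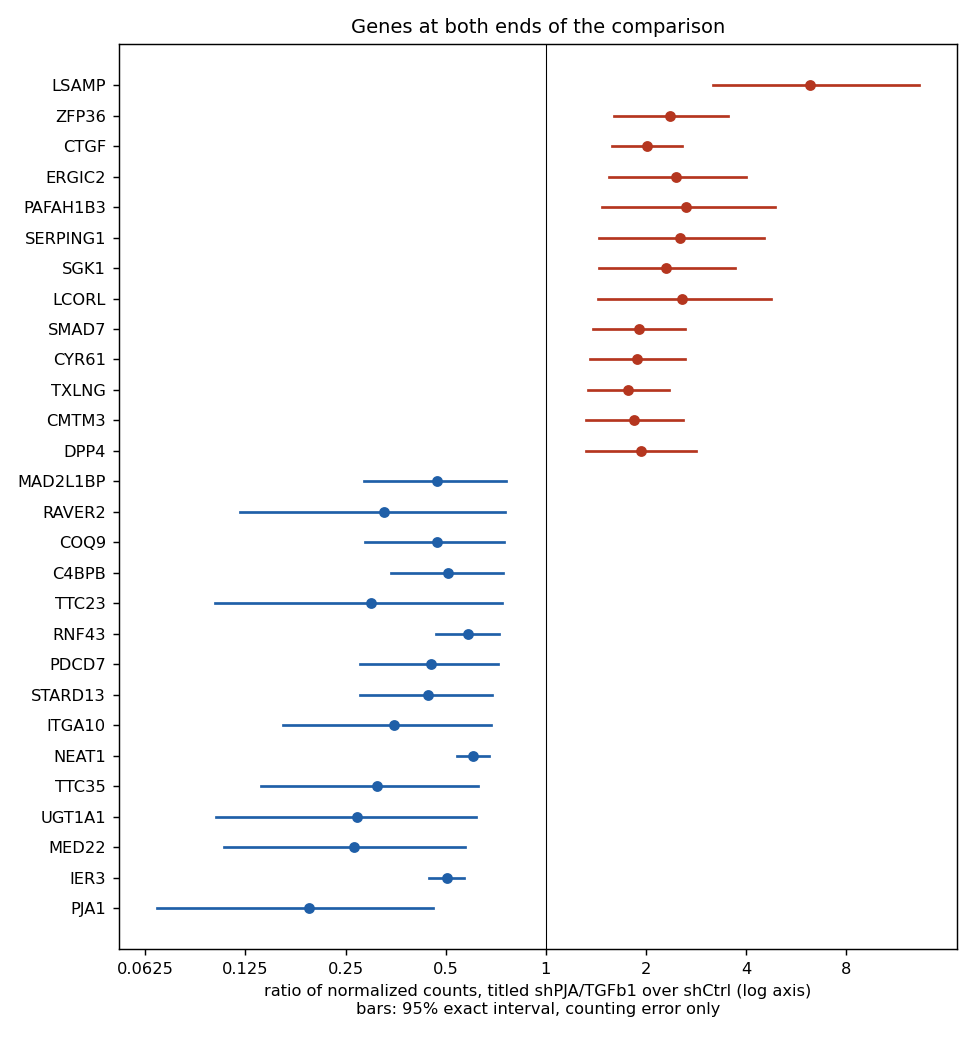
Ratio of normalized counts of the library titled shPJA/TGFb1 over shCtrl on a log axis for 13 of the 15 highest genes and for the 15 lowest, ranked by the interval bound nearest to 1. Points are ratios and bars their exact 95% counting intervals, and IER3 and NEAT1 have the narrowest ones while PJA1, UGT1A1, MED22 and TTC23 rest on few reads.

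Beyond the SMAD3 targets, calls among BMP and YAP targets were all higher ones. Of 9 BMP and SMAD1/5 targets past the limit 2 were called higher and 0 lower, a share of 22.2% where 2.04% of all genes were called higher, and their median log2 ratio was 0.43. The binomial interval of that median held 0 (-0.37 to 0.92), and 6 of 9 had a ratio above 1. One was SMAD7 and the other ID1, an inhibitor of helix-loop-helix factors, which had 86.4 in the library titled shPJA/TGFb1, 76.3 in TGFb1, 62.1 in shPJA1 and 45.6 in shCtrl and a ratio of 1.90 (1.23 to 2.94). ID2 and ID3 were at 1.26 (0.799 to 1.998) and 1.34 (0.75 to 2.39), and the Notch and BMP target HES1 at 1.61 (0.98 to 2.67). ID2 had 63.6 in the library titled shPJA/TGFb1, 91.1 in TGFb1, 74.7 in shPJA1 and 50.3 in shCtrl. ID3 had 42.4, 22.2, 21.6 and 31.6 in the same order. Of 20 YAP and TEAD targets 3 were called higher and 0 lower, a share of 15% against the same 2.04%, with a median of 0.19 and 18 of 20 above 1. SMAD7 and CTGF also stand in the lists described above. The YAP genes called were CTGF, CYR61 and MYOF, myoferlin, which had 79.9 in the library titled shPJA/TGFb1, 109.9 in TGFb1, 126.1 in shPJA1 and 51.4 in shCtrl, so shCtrl alone was low. MYOF had a ratio of 1.55 (1.01 to 2.39) and was no longer called when scaled by total reads. ANKRD1, a muscle and YAP-responsive ankyrin protein, was at 1.13 (0.84 to 1.52). The SMAD transducers, receptors and adaptors held 0 called genes of 22, with ratios between 0.73 (TGFBR3) and 1.22 (SMAD2). SPTBN1, the spectrin that presents SMAD3 and SMAD4 to the receptor complex, was at 0.954 (0.919 to 0.990) from 4689 and 6853 reads, and SMAD3 at 1.05 (0.90 to 1.21). Of 21 PJA-family and SMAD-directed ubiquitin genes PJA1 alone was called, and its relative PJA2 was at 1.10 (0.92 to 1.33).

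Immediate early genes went both ways, with 2 of 27 called higher (ZFP36 and JUNB), 1 lower (IER3) and a median log2 ratio of -0.06, which was 0.06 with TGFb1 and 0.14 with shPJA1 in place of shCtrl. The share called in either direction was 11.1%, against 4.29% of all genes. EGR1 was at 0.75 (0.66 to 0.84), with 738.4 in the library titled shPJA/TGFb1, 549.0 in TGFb1, 791.4 in shPJA1 and 990.0 in shCtrl. FOSL1, an AP-1 subunit, was at 1.49 (1.17 to 1.91) and the phosphatase DUSP1 at 1.46 (1.03 to 2.07), both just under the rule, while JUN was at 0.77 (0.62 to 0.95). The NF-kappaB targets had a median of -0.11 whose interval held 0 (-0.206 to 0.036), with 12 of 17 below 1, 2 called lower and 1 higher. That was 17.6% called in either direction, against the same 4.29%. The lower genes were IER3 and BIRC3, an inhibitor of apoptosis, which had 223.3 in the library titled shPJA/TGFb1, 476.1 in TGFb1, 322.3 in shPJA1 and 341.3 in shCtrl and a ratio of 0.654 (0.530 to 0.804). BIRC3 was thus lowest in the library titled shPJA/TGFb1 and highest in TGFb1, unlike IER3. BCL3, an atypical inhibitor of NF-kappaB, was called higher, at 2.14 (1.07 to 4.41) from 23 against 15 reads, and NFKBIA was at 0.72 (0.61 to 0.85).

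In metabolism, 2 of 29 glycolysis and hypoxia genes were called higher and 0 lower, with a median log2 ratio of 0.17 and 23 of 29 above 1. The share called higher was 6.9%, against 2.04% of all genes. PFKP, platelet-type phosphofructokinase, was at 2.09 (1.21 to 3.67) and PGAM1, phosphoglycerate mutase, at 2.09 (1.18 to 3.77), from 36 and 33 reads against 24 and 22. Deeply read members differed by less, among them LDHA at 1.16 (1.03 to 1.32), HIF1A at 1.24 (1.10 to 1.39) and SLC2A1, the glucose transporter GLUT1, at 1.09 (1.02 to 1.16). Of 26 NRF2 targets 2 were called higher, TKT, transketolase of the pentose phosphate pathway, at 1.57 (1.25 to 1.97) and HMOX1, haem oxygenase, at 2.09 (1.11 to 4.03). That was 7.69% of the list, against the same 2.04%. TKT had 278.7 in the library titled shPJA/TGFb1, 216.4 in TGFb1, 191.8 in shPJA1 and 177.7 in shCtrl. Of 66 oxidative phosphorylation genes, the largest list, 5 were called lower and 0 higher, a share of 7.58%, where 2.25% of all genes were called lower. They were ATP5G1 of the ATP synthase c-ring at 0.436 (0.227 to 0.792), NDUFS6 at 0.617 (0.426 to 0.881), NDUFS5 at 0.60 (0.397 to 0.892) and NDUFA9 at 0.647 (0.431 to 0.957) of complex I, and COX7A2 of cytochrome oxidase at 0.636 (0.416 to 0.954). All 5 were highest in shCtrl, which follows in part from calling them lower than shCtrl. NDUFS5, for example, had 60.3 in the library titled shPJA/TGFb1, 48.4 in TGFb1, 58.5 in shPJA1 and 100.5 in shCtrl. The list's median was -0.07, an interval that held 0 (-0.18 to 0.025) lay around it, and 27 of 66 members were above 1. The median was 0.045 with TGFb1 and 0.041 with shPJA1 in place of shCtrl. NSDHL, a sterol synthesis enzyme, was the 1 call among 24 cholesterol and fatty acid genes, at 0.398 (0.176 to 0.822). In the 14 drug-metabolising genes UGT1A1 was lower and TIPARP, an aryl hydrocarbon receptor target, higher at 1.56 (1.08 to 2.27).

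Among growth genes, 3 of 17 mitosis genes were called higher and 1 lower, with a median log2 ratio of 0.15. That share of 23.5% called was the highest of the lists, where 4.29% of all genes were called. The binomial interval of the mitosis median held 0 (-0.099 to 0.43), and the median was 0.039 over the members at a mean of at least 5. It was 0.46 with TGFb1 and 0.0051 with shPJA1 in place of shCtrl. BUB1B, a spindle checkpoint kinase, was at 2.44 (1.28 to 4.83), the kinase AURKA at 1.64 (1.05 to 2.59) and the spindle protein ASPM at 2.09 (1.01 to 4.45), while the condensin subunit SMC2 was at 0.608 (0.411 to 0.887). ASPM was no longer called with the GC trend removed. The 25 DNA replication genes had 0 calls and a median of 0.19, which was 0.016 over the members at a mean of at least 5 and -0.023 with no limit on level. Among 62 cytosolic ribosomal protein genes RPSA was called higher at 2.23 (1.12 to 4.57) and RPS21 and RPL34 lower at 0.622 (0.400 to 0.949) and 0.647 (0.411 to 0.997), and these genes have processed pseudogenes that can share reads with them. RPS21 had 53.8 in the library titled shPJA/TGFb1, 41.0 in TGFb1, 45.9 in shPJA1 and 86.5 in shCtrl. RPL34 had 52.2, 42.1, 51.3 and 80.6 in the same order, so for both shCtrl alone was high. DDIT3, the stress factor CHOP, was the 1 call among 34 unfolded protein and integrated stress response genes, with 19.6 in the library titled shPJA/TGFb1, 27.9 in TGFb1, 46.8 in shPJA1 and 46.8 in shCtrl, a ratio of 0.418 (0.200 to 0.813), and it overlaps MARS and MBD6 on the opposite strand. The 31 heat shock and chaperonin genes had 0 calls and ratios between 0.697 and 1.48. Of 26 p53 targets and cell-cycle inhibitors GADD45B alone was called. Of 9 replication-dependent histone genes the linker histone HIST1H1C was higher at 1.63 (1.05 to 2.54). In the splicing list of 35 genes the kinase CLK1 was lower at 0.588 (0.426 to 0.802) and SRPK2 higher at 1.71 (1.07 to 2.76), with a median of -0.11 and 25 of 35 below 1, and SRPK2 overlaps KMT2E on the opposite strand. SRPK2 had 70.1 in the library titled shPJA/TGFb1, 71.2 in TGFb1, 75.6 in shPJA1 and 40.9 in shCtrl, so shCtrl alone was low.

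**Figure D4:**
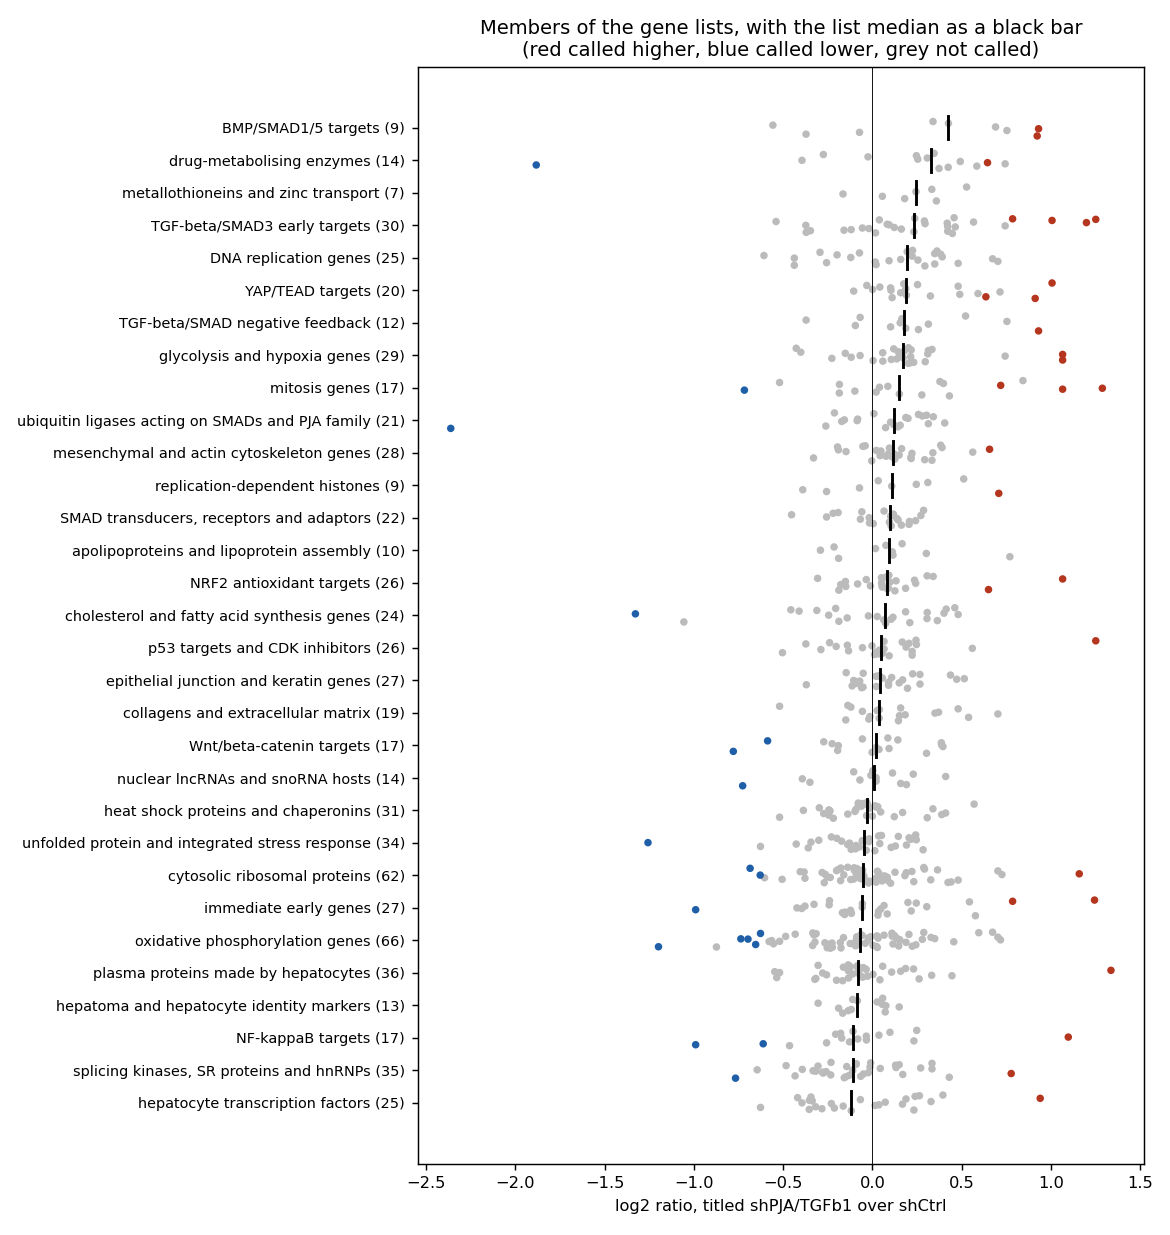
Log2 ratio of the library titled shPJA/TGFb1 over shCtrl for each member of 31 gene lists with at least 5 genes past the limit on level, with the number of members in brackets and the list median as a black bar. Red points were called higher and blue points lower, medians ran from -0.12 for hepatocyte transcription factors to 0.43 for BMP targets, and most members of each list were not called.

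Liver markers had many reads in every library. Of 14 hepatocyte and hepatoma markers 13 passed the limit, 0 were called, and their ratios ran from 0.81 to 1.11. Their summed normalized count was 44896 in the library titled shPJA/TGFb1, 39408 in TGFb1, 45160 in shPJA1 and 43889 in shCtrl. The member with the most reads, APOB, had 17136 in the library titled shPJA/TGFb1 and 22688 in shCtrl. Since counts are not scaled by gene length, this does not rank the markers by abundance, and the sum rests largely on this gene. Of 36 plasma protein genes SERPING1 alone was called, 25 had a ratio below 1 and the median log2 ratio was -0.08. Hepatocyte transcription factors had a median of -0.12, whose interval held 0 (-0.318 to 0.168). With TGFb1 in place of shCtrl these medians were 0.14 for plasma proteins and 0.18 for hepatocyte transcription factors. The 10 apolipoprotein and lipoprotein genes had 0 calls, as had 27 epithelial junction genes, 19 collagen and matrix genes and 7 metallothionein and zinc genes. Of 28 mesenchymal and actin genes FSCN1, the actin bundler fascin, was called higher at 1.58 (1.07 to 2.32), and of 17 Wnt targets RNF43 and SP5, a Wnt-induced factor, lower, the second at 0.666 (0.449 to 0.972). The Wnt calls were 11.8% of that list, where 2.25% of all genes were called lower. In the list of 14 nuclear and host noncoding RNAs NEAT1 alone was called.

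Markers of other cell types were near 0 for fibroblasts, endothelium and HEK293 cells, while the leukocyte list held many reads of LYZ and CD68. The summed normalized count of 10 fibroblast markers was 8.1 in the library titled shPJA/TGFb1 and 8.2 in shCtrl, and 4 of them had no read in any library. For 9 endothelial markers it was 13.04 in the library titled shPJA/TGFb1 and 18.70 in shCtrl, with 5 at 0 in every library, and for 8 markers of the HEK293 line, often used to package lentivirus, 6.52 in the library titled shPJA/TGFb1 and 2.34 in shCtrl, with 5 at 0. The 14 leukocyte markers summed to 1239 in the library titled shPJA/TGFb1 and 1528 in shCtrl, carried by LYZ, the lysozyme gene, and CD68, a lysosomal glycoprotein gene, whereas PTPRC, CD3E, MS4A1, NKG7 and TYROBP had no read in any library.

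A comparison with no library in common was available in TGFb1 over shPJA1. If the title is right, the library titled shPJA/TGFb1 over shCtrl holds the hairpin and TGFb1 with the same sign, and TGFb1 over shPJA1 holds TGFb1 with the same sign and the hairpin with the opposite one. Whether the TGFb1 cells had a control hairpin is not stated, so TGFb1 over shPJA1 may also differ by infection. In TGFb1 over shPJA1, 1.55% of the 8575 genes were called higher and 2.65% lower by the same rule. Of the 175 genes called higher in the library titled shPJA/TGFb1, 14 (8.0%) were called higher in TGFb1 as well and 3 (1.71%) lower. Of the 193 genes called lower, 11 (5.70%) were also called lower in TGFb1 and 3 (1.55%) higher. Most of the called genes were called in neither direction there, and 53.1% of the higher and 44.6% of the lower genes had a ratio above 1, against 52.5% of all genes. These shares are given with no test, since genes are not replicates.

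The 31 genes called in both comparisons were chosen after their values were seen. LSAMP, SMAD7, SGK1, GADD45B, CYR61 and LCORL were among the 14 higher in both, and the ratio in TGFb1 over shPJA1 was 3.103 (2.11 to 4.69) for LSAMP, 2.42 (1.88 to 3.16) for SMAD7 and 1.83 (1.42 to 2.37) for CYR61. The others were ABCA5, a lipid transporter, SLC36A4, an amino acid transporter, the matrix proteins SPON1 and TINAGL1, the deubiquitinase YOD1, CCRN4L (nocturnin), the vesicle fusion protein NAPA, and RPSA. ABCA5 had 58.7 in the library titled shPJA/TGFb1, 63.8 in TGFb1, 27.9 in shPJA1 and 26.9 in shCtrl. Lower in both were IER3, at 0.473 (0.428 to 0.523) in TGFb1 over shPJA1, CLK1, DDIT3, TAF15, an RNA-binding protein of the FET family, the alcohol dehydrogenase ADH6, ATPIF1, which inhibits the mitochondrial ATP synthase, JRK, C19orf80, FLJ10038, LOC100216546 and LOC643401. Of these 31 genes, TAF15, JRK, C19orf80, YOD1 and SAP30BP also overlap a coding gene on the opposite strand. CLK1 had 96.2 in the library titled shPJA/TGFb1, 102.5 in TGFb1, 180.1 in shPJA1 and 163.6 in shCtrl, low where TGFb1 is in the title. TAF15 had 79.9, 54.1, 101.7 and 132.1 in the same order. The 3 genes lower in the library titled shPJA/TGFb1 and higher in TGFb1 were PJA1, with a ratio of 2.49 (1.45 to 4.53) in TGFb1 over shPJA1, the polycomb protein PCGF1 and SAP30BP. The 3 that went the other way were ZC3H4, a zinc finger protein that limits noncoding transcription, ASPM and ZNF768. ZC3H4 had 39.1 in the library titled shPJA/TGFb1, 18.2 in TGFb1, 39.6 in shPJA1 and 16.4 in shCtrl, so both libraries titled with the hairpin were high.

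**Figure D5:**
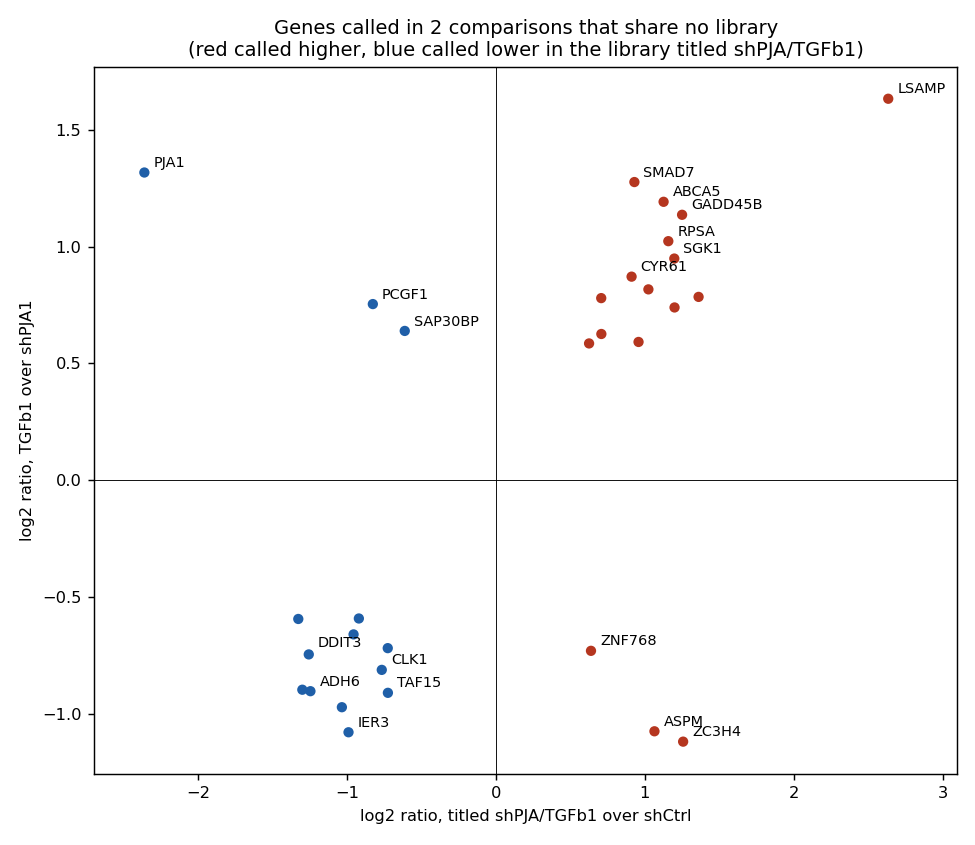
The 31 genes called both in the library titled shPJA/TGFb1 over shCtrl (log2 ratio, horizontal axis) and in TGFb1 over shPJA1 (log2 ratio, vertical axis), which share no library. Of these, 14 lie high on both axes, led by LSAMP, 11 lie low on both, IER3 among them, 3 including PJA1 are at the upper left and 3 including ZC3H4 at the lower right.

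Base composition and transcript length were set beside the calls. At 60% GC the trend of a library's deviation from the mean of the 4 libraries was 0.085 on the log2 scale in the library titled shPJA/TGFb1, -0.088 in TGFb1, -0.036 in shPJA1 and 0.066 in shCtrl, and at 40% GC it was -0.046, 0.098, 0.035 and -0.071. The median transcript GC content was 47.6% for the genes called higher, 49.4% for those called lower and 47.0% for all genes, and the median length of the longest transcript was 3845, 3256 and 3996 bases. With the GC trend removed 157 genes were called higher and 198 lower. The part of library depth and transcript length in the calls was not tested.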

How the data were processed

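Total RNA of HepG2 cells was sequenced in 4 libraries prepared with an Illumina TruSeq kit, per the labels' protocols. The submitters' processing notes name Trimmomatic, FastQC, Cufflinks and TopHat2 2.0.10 in no stated order, and the build, annotation and counting method were not given in the sources used here. The deposited signal is named FPKM, but every value in each column (100%) was a whole multiple of 1 step within 1e-06, so the deposited values were treated as whole reads divided by a size factor, 0.614 in the library titled shPJA/TGFb1 and 0.856 in shCtrl. Libraries were grouped by title. The members and lists were chosen with earlier results of these data known.

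Ratios are of normalized counts, with exact conditional (Clopper-Pearson) 95% intervals of 2 read counts. Genes named are PJA1, the TGF-beta feedback and label-check genes, the 15 highest and 15 lowest by the interval bound nearest to 1 without small RNAs and uncharacterised loci, and up to 5 called genes of each of 35 lists. Further members of the lists were quoted after their values were seen, as were the genes of the comparison without shared libraries. A few genes that the rule names are not reported here. Lists were described by counts and medians only. Transcript GC content and length came from GENCODE release 29, matched by symbol for 98.5% of the genes, with a lowess span of 0.3. RefSeq promoter windows were found for 72 of 103 named genes. Alternatives were other scalings, filters, folds and intervals, a GC correction, other libraries in place of shCtrl, and, added after seeing the data, edgeR 4.0.16 and DESeq2 1.42.0 fits on the recovered reads. The tools were matplotlib 3.10.9, statsmodels 0.14.6, scipy 1.17.1, numpy 2.4.6, pandas 2.3.3, R 4.3.3 and Python 3.11.15, and the steps were tested on simulated data.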

Additional observations from a re-analysis of the deposited data

How the results depend on the processing

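With the 4 other scalings and the GC trend removed, 157 to 169 genes were called higher and 196 to 205 lower, against 175 and 193 with the deposited factors, and no scaling moved the median of all genes by more than 0.02 on the log2 scale. A mean of at least 50 left 105 higher and 104 lower calls, while a mean of at least 5 gave 224 and 259 and no filter 234 and 266. The 2-fold rule gave 56 and 83, a 99% interval 77 and 75, and 1.5-fold on log2 of the value plus 1 without an interval 332 and 409. With TGFb1 in place of shCtrl 295 genes were higher and 231 lower in the library titled shPJA/TGFb1, and with shPJA1 in its place 177 and 184. An additive fit by title on the recovered reads, which has 1 residual degree of freedom and assumes that the title is right, called 1 gene higher (LSAMP) and 1 lower (IER3) for the hairpin plus TGFb1 by edgeR, with 252 of 8575 genes at an unadjusted p under 0.05, and by DESeq2 0 higher and 0 lower, with 8 genes at an unadjusted p under 0.05. No paired analysis was possible because each condition has 1 library.

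Of 485 values of 97 named genes under 5 alternatives, 479 kept their side of the call, 6 were no longer called (MYOF, ASPM, YOD1 and ZNF768), and 0 were reversed. Of 341 list medians under the alternatives, 325 stayed inside the binomial interval of the median. The 16 others all came from replacing shCtrl, and the cause was not tested. With TGFb1 in its place the median log2 ratio was -0.11 for TGF-beta feedback genes, 0.025 for YAP targets, -0.14 for heat shock genes, -0.077 for NRF2 targets, 0.46 for mitosis genes, 0.036 for ribosomal proteins, 0.045 for oxidative phosphorylation, 0.18 for hepatocyte factors, 0.14 for plasma proteins, -0.16 for SMAD-directed ubiquitin genes and 0.21 for hepatocyte markers. With shPJA1 in its place it was 0.11 for ribosomal proteins, 0.041 for oxidative phosphorylation, 0.023 for plasma proteins, 0.20 for nuclear and host noncoding RNAs and 0.14 for hepatocyte markers. Other medians changed sign within that interval. They were -0.028 for SMAD transducers, -0.046 for epithelial genes, 0.060 for immediate early genes and -0.013 for p53 targets with TGFb1 in place of shCtrl. With shPJA1 they were 0.14 for immediate early genes, -0.013 for p53 targets, -0.021 for SMAD-directed ubiquitin genes and 0.00405 for unfolded protein response genes. The noncoding RNAs were at -0.0081 when scaled by total reads and -0.0060 with upper-quartile scaling, and DNA replication genes at -0.023 with no filter. With GC trends removed, 12 of 157 higher genes were also called higher in TGFb1 over shPJA1, and 11 of 198 lower genes lower. Depth limits the low genes. With each gene's total reads split at exactly 1.5-fold, the interval would exclude 1 in 59.1% of the genes when higher and in 55.9% when lower. Sampling of reads is left out of these shares, so they are not the shares of true differences that would be called.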
